A study of Mus musculus with 12 samples.

Results

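Small leucine-rich proteoglycans (SLRPs) were followed in pancreatic stellate cells (PSCs), the fibroblast-like cells of the pancreas, at the level of RNA. The 9 SLRP genes described here were taken by symbol from the 39179 genes of the count table: *Aspn* (asporin), *Dcn* (decorin), *Bgn* (biglycan), *Fmod* (fibromodulin), *Lum* (lumican), *Prelp* (prolargin), *Omd* (osteomodulin), *Ogn* (osteoglycin) and *Podn* (podocan). These genes were selected on earlier readings of the same 12 libraries, in which *Aspn* and *Ogn* were already known to fall and the levels of the others had been seen. Their differences between cultures are therefore given as a description, with standard errors and without p-values.

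The PSCs were an SV40-immortalised mouse line of C57BL/6 background, taken from a single clone and labelled with mCherry by a lentivirus. They were cultured for 72 h alone (mono-PSC), with pancreatic cancer cells (PCCs) in a 2-way co-culture (2W-PSC), or with PCCs and macrophages (MØs) in a 3-way co-culture (3W-PSC). The PCCs were an EGFP-labelled mouse line, and the MØs were the RAW264.7 mouse line labelled with TagBFP. All flasks held the same minimal medium with dialysed serum. Before lysis, PSCs were isolated by sorting for cells with mCherry and without EGFP or TagBFP. The total cell number was the same in each culture, so the co-cultures were seeded with fewer PSCs. An effect of PSC density was not tested. Each culture gave 4 libraries, which the study describes as biological replicates of this 1 clone, so the spread between them holds no variation between animals or between PSC isolates.

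SLRPs are secreted proteins whose core is built of leucine-rich repeats, and most carry sulfated sugar chains. In the matrix they coat collagen fibrils and set fibril width and spacing, and several also bind growth factors, TGF-β among them. Decorin and biglycan carry chondroitin or dermatan sulfate chains, fibromodulin, lumican and osteomodulin can carry keratan sulfate, and asporin carries no such chain but has a stretch of aspartic acid. In the pancreas, activated stellate cells and fibroblasts are known as the main makers of these proteins, which accumulate in the dense stroma around ductal tumours.

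Total counts ranged from 4561817 to 8093368 per library, with the lowest in 2W-PSC replicate 2. The libraries were made by a 3′ method that yields about 1 fragment near the end of each transcript, so levels in CPM (counts relative to the library total, scaled by TMM over the 12 libraries) were compared between genes without correction for length. Summed CPM of 10 fibroblast markers was 13638 to 16194 in mono-PSC, 17312 to 22362 in 2W-PSC and 9342 to 11544 in 3W-PSC, with all 10 markers present in each culture. Of 12 macrophage markers, summed CPM was 2.44 to 8.53, 4.16 to 11.8 and 12.6 to 53.1 in the same order, and *Ptprc*, *Emr1*, *Fcgr1*, *Tyrobp* and *Laptm5* were at 0 in mono-PSC and 2W-PSC. In 3W-PSC, *Emr1* was the macrophage marker at 0 in all libraries. Of 10 epithelial markers, summed CPM was 0.481 to 2.44, 74.4 to 145 and 50.3 to 88.6, while *Epcam*, *Cldn4*, *Cldn7* and *Esrp1* were at 0 in 2W-PSC and *Cldn4* was at 0 in 3W-PSC. The 5 endothelial markers summed to at most 5.58 CPM in any library. Whether carried-over RNA had a part in the results was not tested. In sorted bulk samples, fewer expressing cells and less RNA per cell cannot be told apart.

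*Aspn* had the lowest log2 fold change of the fitted SLRP genes in 3W-PSC against 2W-PSC. Asporin, a class I SLRP, binds collagen and TGF-β. Its level was 11.1, 10.1, 7.03 and 9.51 CPM in mono-PSC replicates 1 to 4, which gives 9.45 ± 1.75 (SD, n = 4). In 2W-PSC it was 49.3, 45.3, 46.3 and 36 CPM, or 44.2 ± 5.73 (SD, n = 4). In 3W-PSC it was 0.665, 0.349, 1.15 and 0.520 CPM, or 0.670 ± 0.343 (SD, n = 4), from 3 to 9 counts per library. The 3 cultures did not overlap in any library, and the order was 2W-PSC, mono-PSC, 3W-PSC. The log2 fold change of 3W-PSC against 2W-PSC was -6.02 (SE 0.322), and the mean CPM was 65.9 times higher in 2W-PSC. Against mono-PSC, the log2 fold change was 2.24 (SE 0.237) in 2W-PSC and -3.80 (SE 0.434) in 3W-PSC.

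Decorin, the best studied class I SLRP, binds collagen fibrils, TGF-β and several receptor tyrosine kinases. *Dcn* was at 132, 159, 125 and 103 CPM in mono-PSC, at 271, 226, 235 and 257 CPM in 2W-PSC, and at 164, 166, 86.2 and 86.4 CPM in 3W-PSC. All 2W-PSC libraries were above all others, whereas mono-PSC and 3W-PSC overlapped. The log2 fold change was 0.95 (SE 0.190) for 2W-PSC against mono-PSC, -0.98 (SE 0.241) for 3W-PSC against 2W-PSC and -0.05 (SE 0.218) for 3W-PSC against mono-PSC. Within 3W-PSC, replicates 1 and 2 lay higher than replicates 3 and 4, while *Ogn*, *Prelp* and the summed fibroblast markers (9342 and 9375 against 11544 and 11386 CPM) lay lower in replicates 1 and 2. The *Dcn* call of 3W-PSC against 2W-PSC was lost when 2W-PSC replicate 1, 2W-PSC replicate 4, 3W-PSC replicate 3 or 3W-PSC replicate 4 was left out (log2 fold change -1.14 to -0.84 over the alternatives), and that of 2W-PSC against mono-PSC held without 1 of the 8 libraries, 2W-PSC replicate 2, and was lost without each of the others.

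Biglycan, the closest relative of decorin, stabilises collagen fibrils and in soluble form is a ligand of Toll-like receptors. *Bgn* was the most abundant of the 9 genes in every culture, at 1326, 1447, 1022 and 1458 CPM in mono-PSC. It was at 2287, 5402, 1761 and 2721 CPM in 2W-PSC, where replicate 2, the library with the lowest total, held the highest value. In 3W-PSC it was at 1963, 1984, 1906 and 2435 CPM. Both co-cultures lay above mono-PSC in every library, and the co-cultures overlapped with each other. The log2 fold change against mono-PSC was 0.65 (SE 0.167) in 3W-PSC, which was called, and 1.24 (SE 0.323) in 2W-PSC, which was not. Without 2W-PSC replicate 2 the latter was 0.79 (SE 0.203) and that of 3W-PSC against 2W-PSC moved from -0.56 (SE 0.306) to -0.13 (SE 0.164), neither of which was called.

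**Figure D1:**
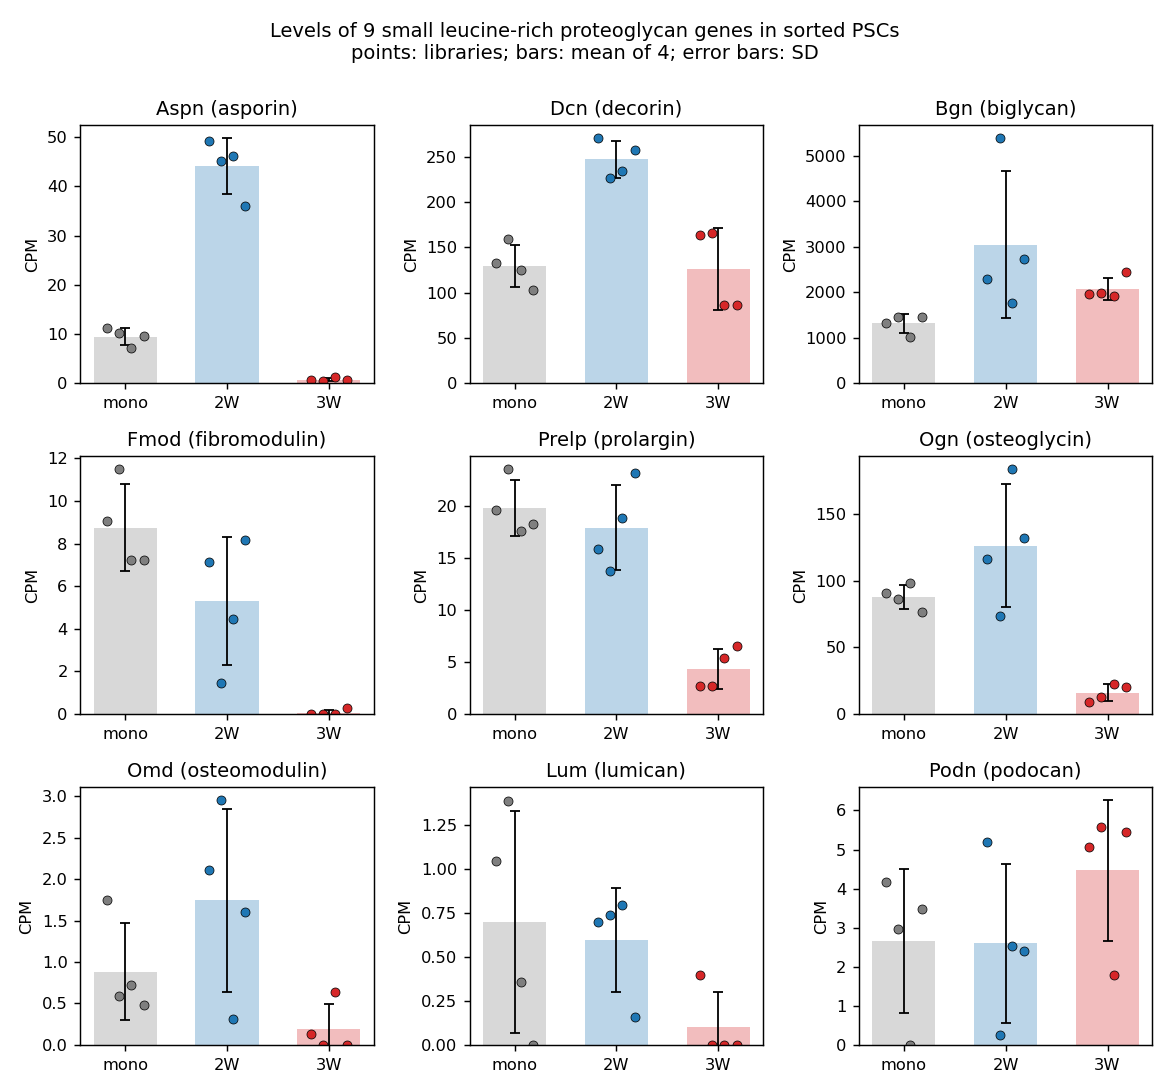
Levels of the 9 SLRP genes in CPM (TMM-scaled) by culture, with a separate linear axis from 0 for each gene; points are the 4 libraries of a culture in the order of their replicate numbers, bars their mean and error bars their SD, drawn down to 0 at most. *Aspn*, *Fmod*, *Prelp* and *Ogn* are lowest in 3W-PSC without overlap, while *Bgn* lies above mono-PSC in both co-cultures.

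Among class II SLRPs, *Prelp* and *Fmod* were both lower in 3W-PSC than in either other culture. Prolargin, the product of *Prelp*, binds collagen and the heparan sulfate of basement membranes. Its gene was at 19.7, 23.6, 17.7 and 18.3 CPM in mono-PSC, at 15.9, 13.8, 18.9 and 23.2 CPM in 2W-PSC, and at 2.66, 2.67, 5.35 and 6.50 CPM in 3W-PSC. Mono-PSC and 2W-PSC overlapped, with a log2 fold change of -0.12 (SE 0.247), and no 3W-PSC library reached either of them. The log2 fold change of 3W-PSC was -2.07 (SE 0.344) against 2W-PSC and -2.21 (SE 0.303) against mono-PSC.

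Fibromodulin organises collagen fibrils in tendon and fibrous stroma. *Fmod* was at 9.06, 11.5, 7.21 and 7.22 CPM in mono-PSC and at 7.16, 1.48, 4.45 and 8.16 CPM in 2W-PSC, which overlapped, with a log2 fold change of -0.67 (SE 0.448). In 3W-PSC it had 0 counts in replicates 1 to 3 and 2 counts in replicate 4. Over the 4 libraries together, 210 counts in mono-PSC stood against 2 in 3W-PSC, a ratio of 135 at equal depth with an exact 95% interval of 36.9 to 1121. For 2W-PSC, 136 counts gave a ratio of 90.7 with an interval of 24.6 to 757. These intervals cover counting error only, because the counts of the 4 libraries were pooled. The spread between libraries, such as 6 to 51 counts in 2W-PSC, is left out, so the intervals are too narrow for a difference between cultures. Reads were also counted without molecular identifiers, so even the counting error may be understated. *Fmod* had too few counts to be fitted in 3W-PSC against 2W-PSC.

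*Lum* and *Omd* were near the limit of these libraries. Lumican spaces collagen fibrils in cornea and skin, and its gene had 0 to 7 counts in mono-PSC, 1 to 5 in 2W-PSC and 0 to 3 in 3W-PSC, where 3 of the libraries had 0. Osteomodulin is a keratan sulfate proteoglycan of bone and tooth, and *Omd* had 10, 3, 4 and 4 counts in mono-PSC, 15, 12, 2 and 10 in 2W-PSC and 1, 0, 5 and 0 in 3W-PSC. The cultures overlapped for both genes, and neither was fitted. With 3 counts per library as the floor, levels under 0.349 to 0.738 CPM could not be told from 0, depending on the library.

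Osteoglycin, also called mimecan and of class III, is found in bone, vessel walls and fibrous tissue. *Ogn* was at 90.4, 86.3, 98.2 and 76.4 CPM in mono-PSC, at 116, 73.0, 184 and 132 CPM in 2W-PSC, and at 8.78, 12.8, 22.2 and 20.3 CPM in 3W-PSC. Mono-PSC and 2W-PSC overlapped (log2 fold change 0.55, SE 0.253), with 2W-PSC replicate 2 below all mono-PSC libraries. All 3W-PSC libraries were below all others, with log2 fold changes of -2.98 (SE 0.343) against 2W-PSC and -2.46 (SE 0.238) against mono-PSC. The mean was 7.89 times higher in 2W-PSC and 5.49 times higher in mono-PSC than in 3W-PSC.

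Podocan, of class V, is known from kidney and smooth muscle. *Podn* was at 4.18, 2.98, 0 and 3.49 CPM in mono-PSC, at 5.19, 0.246, 2.54 and 2.40 CPM in 2W-PSC, and at 5.06, 5.58, 1.78 and 5.46 CPM in 3W-PSC. The cultures overlapped, and the log2 fold changes were 0.73 (SE 0.615) for 3W-PSC against 2W-PSC and 0.72 (SE 0.609) for 3W-PSC against mono-PSC. No comparison of *Podn* was called.

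The counts of called genes have to be read against all genes, since the cultures differed widely. A gene was called where the adjusted p of edgeR's quasi-likelihood test was under 0.05. In 3W-PSC against 2W-PSC, 6 of the 9 genes had enough counts to be fitted. Of these, 4 were called lower (*Aspn*, *Dcn*, *Prelp*, *Ogn*), against 4.95% of all genes tested, and 0 were called higher, against 5.73%. In 2W-PSC against mono-PSC, 7 were fitted, with 2 called higher (*Aspn*, *Dcn*), against 0.839% of all genes tested, and 0 lower, against 0.152%. In 3W-PSC against mono-PSC, 7 were fitted, with 4 called lower (*Aspn*, *Fmod*, *Prelp*, *Ogn*), against 13% of all genes tested, and 1 higher (*Bgn*), against 13.4%. Nothing is read from these counts, because the genes were chosen with these contrasts known and the filter keeps genes that are high in a single culture.

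The libraries did not overlap for the same 4 genes in 3W-PSC against 2W-PSC, where 9.71% of all genes tested were lower and 11.6% higher without overlap, and *Fmod*, not fitted there, was also lower without overlap. In 2W-PSC against mono-PSC, *Aspn*, *Dcn* and *Bgn* were higher without overlap, against 3.23% of all genes tested, and 0 were lower, against 2.52%. In 3W-PSC against mono-PSC, 4 were lower and 1 higher without overlap, against 12.1% and 13.9% of all genes tested. The median log2 fold change of all genes tested was 0.0025, 0.0195 and 0.0116 in the same order of comparisons.

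**Figure D2:**
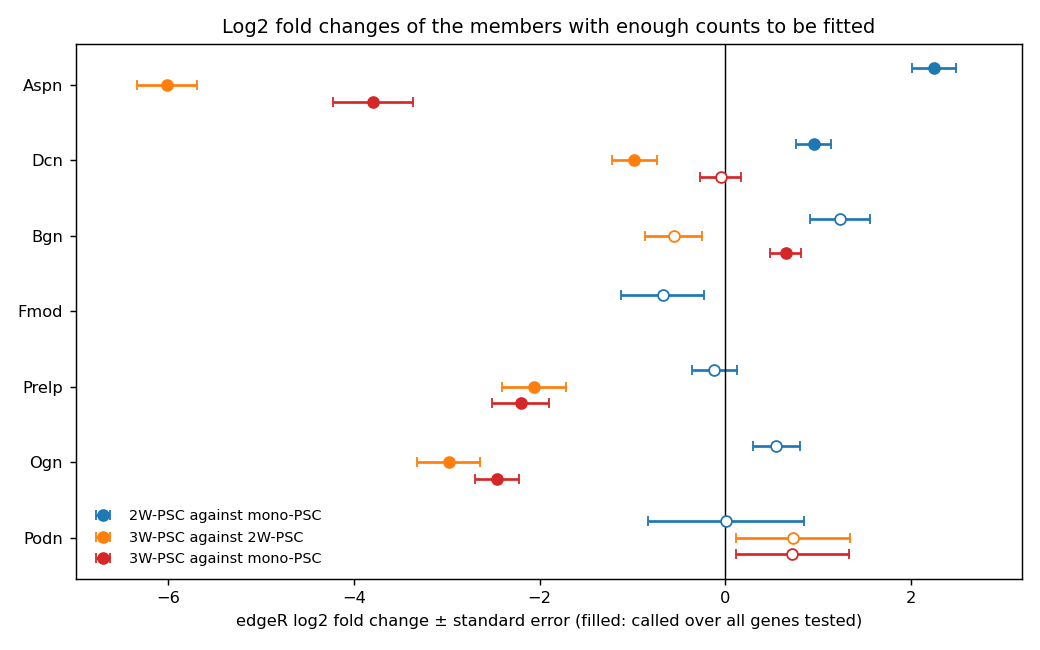
Log2 fold changes with standard errors from edgeR for the 7 SLRP genes that could be fitted, in the 3 comparisons of cultures, with filled points for calls over all genes tested. *Fmod* in 3W-PSC is left out because its counts there were 0 to 2; *Aspn* spans from -6.02 (3W-PSC against 2W-PSC) to 2.24 (2W-PSC against mono-PSC), and *Dcn* against mono-PSC is near 0 in 3W-PSC.

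The make-up of the SLRP transcripts differed between the cultures. *Bgn* supplied 83.3% ± 2.88 of the counts of the 9 genes in mono-PSC, 85.1% ± 6.49 in 2W-PSC and 93.1% ± 1.96 in 3W-PSC (SD, n = 4). Its share of 78.2 to 93.7% in 2W-PSC overlapped with 79.9 to 87.0% in mono-PSC and 91.4 to 95.3% in 3W-PSC. *Dcn* supplied 8.34%, 8.07% and 5.73% on average, with overlap between all cultures. *Ogn* supplied 5.72%, 4.45% and 0.722%, and *Aspn* 0.599%, 1.44% and 0.0310%. The 9 genes summed to 1573 ± 206 CPM in mono-PSC, 3489 ± 1565 in 2W-PSC and 2223 ± 230 in 3W-PSC (SD, n = 4). Without *Bgn* the sums were 260 ± 32.2, 446 ± 56.4 and 151 ± 38.1 CPM, so that 3W-PSC stood above mono-PSC in the sum over all 9 genes and below it in the sum over the other 8.

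Ratios within a library do not depend on its scaling. The ratio of *Aspn* to *Dcn* was 0.0741 ± 0.0170 in mono-PSC, 0.180 ± 0.0277 in 2W-PSC and 0.00637 ± 0.00488 in 3W-PSC (SD, n = 4), with no overlap between cultures. The ratio of *Prelp* to *Ogn* was 0.228 ± 0.0393, 0.151 ± 0.0388 and 0.269 ± 0.0522 (SD, n = 4). It lay higher in every 3W-PSC library (at least 0.209) than in every 2W-PSC library (at most 0.189). The ratio of *Bgn* to *Dcn*, also both class I, was 10.4 ± 2.65, 12.6 ± 7.63 and 18.6 ± 7.99 (SD, n = 4).

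On GRCm38, the SLRP genes fall into clusters that cross the protein classes. *Aspn* (ENSMUSG00000021388, 49544443 to 49567565), *Omd* (ENSMUSG00000048368, 49582462 to 49592822) and *Ogn* (ENSMUSG00000021390, 49608046 to 49624501) lie in this order on the plus strand of chromosome 13, with gaps of 14896 and 15223 bases. *Dcn* (ENSMUSG00000019929, 97479609 to 97518143) and *Lum* (ENSMUSG00000036446, 97565128 to 97572703) lie on the plus strand of chromosome 10. *Prelp* (ENSMUSG00000041577, 133910304 to 133921414, minus strand) and *Fmod* (ENSMUSG00000041559, 134037254 to 134048277, plus strand) lie on chromosome 1, 115839 bases apart. *Bgn* (ENSMUSG00000031375, 73483602 to 73495933, plus strand) is on chromosome X and *Podn* (ENSMUSG00000028600, 108014791 to 108096445, minus strand) on chromosome 4. All 9 are protein-coding.

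Neighbours of the chromosome 13 cluster are given for comparison. *Cenpp*, a centromere protein gene, runs on the minus strand across *Aspn*, *Omd* and *Ogn*, shares 7 exonic bases with *Aspn*, and was at 11.4 ± 2.28, 10.7 ± 3.56 and 6.66 ± 1.39 CPM in mono-PSC, 2W-PSC and 3W-PSC (SD, n = 4). Its 3W-PSC libraries (4.71 to 7.85 CPM) lay below all mono-PSC libraries (9.39 to 14.6 CPM) and overlapped with 2W-PSC. *Ecm2*, a further leucine-rich repeat gene upstream of *Aspn*, had at most 8 counts in any library. Downstream, *Nol8*, a nucleolar protein gene, was at 29.3 ± 6.32, 33.3 ± 2.81 and 47.1 ± 11.3 CPM (SD, n = 4). Its cultures overlapped, with 3W-PSC replicate 3 at 30.2 CPM. No 75-base window from the last 500 bases of the transcripts of the 9 genes occurred in another gene. *Prelp* shares 350 exonic bases with the antisense gene *Gm15851*, which had 0 counts in all libraries.

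**Figure D3:**
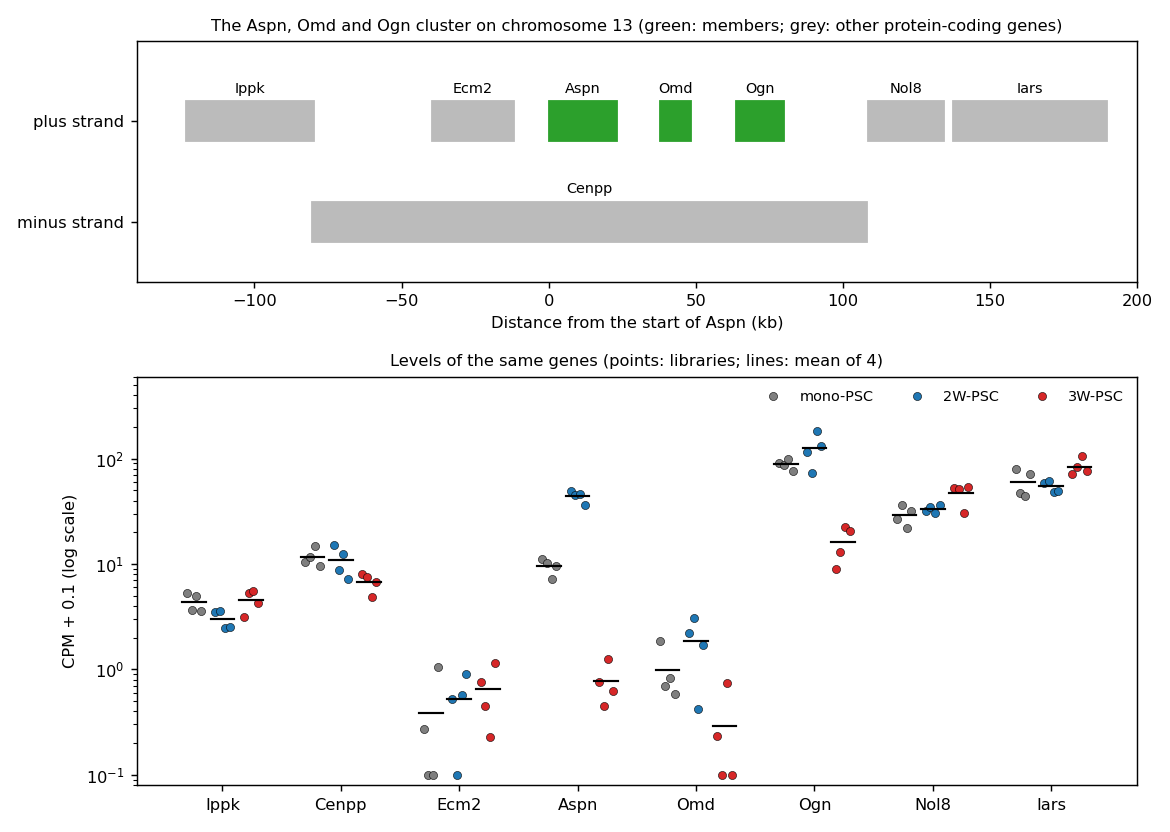
The upper part maps protein-coding genes around *Aspn*, *Omd* and *Ogn* on chromosome 13 in kb from the start of *Aspn*, by strand; the lower part gives the level of each in the 12 libraries as CPM + 0.1 on a log axis, with lines at the mean of the 4 libraries of a culture. *Aspn* and *Ogn* lie lowest in 3W-PSC, whereas *Nol8* has its highest mean, 47.1 CPM, in 3W-PSC, with overlap between the cultures.

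Of the fitted SLRP genes, *Aspn* and *Ogn* had the lowest log2 fold changes of 3W-PSC against 2W-PSC. *Fmod*, not fitted there, was also lower without overlap. The 250 bases before the start site are shown for *Aspn* and *Ogn*, and for *Bgn*, which was higher in 3W-PSC than in mono-PSC. They come from RefSeq on GRCm38.p6, where 7 of the 9 genes were matched, and are read 5′ to 3′ on the plus strand at chr13:49544193-49544442, chr13:49607765-49608014 and chrX:73483351-73483600. Capitals mark matches to the motifs searched.
Aspn: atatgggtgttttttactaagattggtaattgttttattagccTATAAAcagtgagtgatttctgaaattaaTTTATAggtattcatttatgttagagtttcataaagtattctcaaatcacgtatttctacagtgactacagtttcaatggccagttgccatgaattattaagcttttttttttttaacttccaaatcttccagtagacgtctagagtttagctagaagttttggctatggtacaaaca
Ogn: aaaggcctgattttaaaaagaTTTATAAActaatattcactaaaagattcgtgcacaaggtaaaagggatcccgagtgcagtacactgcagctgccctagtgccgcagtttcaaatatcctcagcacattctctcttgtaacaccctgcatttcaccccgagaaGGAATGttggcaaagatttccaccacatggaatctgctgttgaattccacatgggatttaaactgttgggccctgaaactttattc
Bgn: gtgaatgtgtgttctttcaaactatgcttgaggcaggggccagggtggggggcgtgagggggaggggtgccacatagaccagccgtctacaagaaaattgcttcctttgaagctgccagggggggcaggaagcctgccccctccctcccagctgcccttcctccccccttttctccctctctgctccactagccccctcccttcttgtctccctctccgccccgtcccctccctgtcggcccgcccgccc
The motifs were TATAAA, the STAT motif TTCNNNGAA, the NF-κB motif (GGGA and CC with any 4 bases between), the SMAD motif CAGACA, the TEAD motif GGAATG and the CArG box, searched on both strands from 250 bases before to 50 after each start. *Aspn* held 2 matches to TATAAA, which 13.6% of all 32851 promoters in the table hold. *Ogn* held an overlapping pair of TATAAA matches, 1 on each strand, and GGAATG, which 14.7% of promoters hold. *Prelp* held CAGACA after its start, as 21% of promoters do on either side of theirs. *Podn* had 2 starts. The first held an NF-κB match before the start, as 20.7% of promoters do on either side of theirs. The second held CAGACA, read on the opposite strand, after the start. The 300-base windows of *Bgn*, *Fmod* and *Omd* held none of these letters. The printed stretches were 30% G and C for *Aspn*, 42.0% for *Ogn* and 64.4% for *Bgn*. A match of letters is not a binding site, and no binding was measured in these libraries.

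By profile over the 12 libraries, the SLRP genes differed in how close their nearest genes were. Likeness was the root mean square difference of log2 CPM after each gene was centred on its own mean, among 8697 genes other than the SLRP genes with a mean log2 CPM above 3. The nearest of these to *Aspn* were *Ptn*, which codes for the growth factor pleiotrophin, at 1.18, *Myl9*, a myosin light chain gene, at 1.36 and *Igf1* at 1.38. The median over all candidates was 2.35. *Ptn* was at 1847, 1370 and 103 CPM on average in mono-PSC, 2W-PSC and 3W-PSC, without the rise of *Aspn* in 2W-PSC. The means of *Myl9* and *Igf1* were higher in 2W-PSC than in mono-PSC. *Ogn* was nearest to *Igf1* (0.566), *Dlk1* (0.603) and *Fbln5* (0.613), the last an elastic fibre gene. *Prelp* was nearest to *Fbln5* (0.341), *Ptplad2* (0.383) and *Smim1* (0.390), and *Fmod* to *Ptn* (0.704), *Dlk1* (0.888) and *Bmp4* (0.988). *Dcn* was nearest to *Fam210b* (0.294), *Serpinf1* (0.306) and *Ndfip1* (0.324). *Bgn* was nearest to *Clip2* (0.201), *Kctd11* (0.233) and *Rarg* (0.242). Between SLRP genes, the smallest difference was 0.466, for *Prelp* and *Ogn*, closer than *Ogn* was to any gene named above. The next was 0.617, for *Dcn* and *Bgn*. This measure grows with how much a gene varied, and the root mean square of the centred profile was 0.560 for *Dcn* and 0.585 for *Bgn*, against 2.31 for *Aspn*. Their medians over all candidates were 0.678 and 0.697. The value of 0.617 therefore does not mark *Dcn* and *Bgn* as alike. *Aspn* and *Ogn* were at 1.18, about as close as *Aspn* and *Ptn*. These values describe libraries that share cultures and scaling, and no test was made of them.

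Most other members of the SLRP family were not called or were hardly detected. *Podnl1*, a podocan relative, was at 20.9 ± 3.41, 22.7 ± 11.8 and 17.8 ± 4.86 CPM in mono-PSC, 2W-PSC and 3W-PSC (SD, n = 4) and was not called in any comparison. *Tsku*, which codes for the secreted BMP and Wnt modulator tsukushi, was at 1.67 ± 0.533, 1.91 ± 0.787 and 4.95 ± 1.99 CPM (SD, n = 4) and rose in 3W-PSC against mono-PSC (log2 fold change 1.56, SE 0.449, edgeR adjusted p = 0.0160, higher in 4 of 4 libraries without overlap). That call was lost without 3W-PSC replicate 3. Against 2W-PSC its log2 fold change was 1.36 (SE 0.466, edgeR adjusted p = 0.0892). *Chadl* was at 1.13 to 1.72 CPM on average and was not called, *Optc* had at most 15 and *Ecm2* at most 8 counts in a library, *Epyc* had 1 count in all, and *Kera*, *Chad* and *Nyx* had 0 in every library.

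Genes of SLRP biology that are not SLRPs were read from the same fits. Their lists, too, were chosen with earlier results of these libraries known, so the adjusted p-values of these genes are not independent evidence. The filter also keeps genes that are high in a single culture, such as *Mmp13*, *P2rx7* and, above, *Tsku*, so their adjusted p-values are a description. All genes of these lists called in 3W-PSC against 2W-PSC lay without overlap, 4 libraries against 4. The enzymes that build the sugar chains were mostly not called. Of 17 chondroitin and dermatan sulfate synthesis genes fitted in 3W-PSC against 2W-PSC, 1 rose and 0 fell, with a median log2 fold change of 0.18. Over all genes tested, 5.73% rose and 4.95% fell in this comparison. The gene that rose was *Chst11*, a chondroitin sulfotransferase gene, at 9.77 ± 2.01 CPM in 2W-PSC and 27.5 ± 9.28 in 3W-PSC (SD, n = 4), with a log2 fold change of 1.5 (SE 0.270, edgeR adjusted p = 0.00604). It also rose against mono-PSC, by 1.89 (SE 0.259, edgeR adjusted p = 3.84e-05), where *Dse* and *Chst14*, both of dermatan sulfate synthesis, were called higher too, at 0.79 and 0.67; *Dse* overlapped between the cultures, and both calls were lost without most single libraries (held in 2 of 8). Of 6 keratan sulfate synthesis genes, 1 was higher than in 2W-PSC at an unadjusted edgeR p under 0.05, against 1513 of all 11513 genes tested. By edgeR or DESeq2, 0 of the 6 were called. Of 5 fitted against mono-PSC, *Chst2* rose by 1.13 (SE 0.280, edgeR adjusted p = 0.00616) and *Fut8*, a fucosyltransferase gene, by 0.95 (SE 0.282, edgeR adjusted p = 0.0184), the latter lost without 3W-PSC replicate 1, mono-PSC replicate 3 or mono-PSC replicate 4.

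Several collagens that SLRPs coat were lower in 3W-PSC than in 2W-PSC. The collagen list held fibrillar, fibril-associated and type VI chains. Of its 12 genes fitted against 2W-PSC, 6 fell and 0 rose, against 4.95% and 5.73% of all genes tested. The median log2 fold change was -0.68. DESeq2 called 8 genes of the list lower, against 885 of all 17876 genes it was run on, and 0 higher. By edgeR, 0 were higher at an unadjusted p under 0.05. *Col11a1*, a minor fibrillar chain, went from 123 ± 58.3 to 22.8 ± 4.09 CPM (SD, n = 4; log2 fold change -2.43, SE 0.309, edgeR adjusted p = 0.000794). *Col3a1*, a major chain of reticular fibrils, went from 455 ± 117 to 137 ± 5.95 CPM (SD, n = 4; log2 fold change -1.74, SE 0.207, edgeR adjusted p = 0.000538). *Col14a1* was called at -2.0 (SE 0.500) and *Col6a2* at -1.29 (SE 0.212), with *Col1a1* and *Col5a1* the other calls. *Col1a1* was no longer called without 3W-PSC replicate 1 or without 3W-PSC replicate 2. *Col14a1* was lost without 2W-PSC replicate 1, without each 3W-PSC replicate and with all 12 libraries in 1 fit. *Col1a1* and *Col3a1* are also among the fibroblast markers whose sum was lower in 3W-PSC. Against mono-PSC, 3 of 11 fell and 1 rose in 3W-PSC, against 13% and 13.4% of all genes tested, with a median of -0.06. *Col3a1* fell by 1.95 on the log2 scale (SE 0.175, edgeR adjusted p = 3.04e-07) and *Col11a1* by 1.73 (SE 0.189, edgeR adjusted p = 3.02e-06). *Col6a2* was called at -0.59 and *Col6a3* at 0.89, both overlapping between these cultures and both lost without 3W-PSC replicate 1, 3W-PSC replicate 2 or mono-PSC replicate 2; *Col6a2* was also lost without mono-PSC replicate 4, and *Col6a3* without replicate 3 of either culture. *Col1a1* was at 2167 ± 525 CPM in mono-PSC, 3103 ± 477 in 2W-PSC and 1732 ± 260 in 3W-PSC (SD, n = 4), and *Col5a1* at 119 ± 37.9, 172 ± 2.72 and 104 ± 9.31 (SD, n = 4); neither was called in 3W-PSC against mono-PSC. In 2W-PSC against mono-PSC, DESeq2 called 1 collagen gene higher, against 230 of all 17135 genes it was run on. By edgeR, 0 of 12 collagen genes were called there, and the median was 0.59. At an unadjusted edgeR p under 0.05, 8 were higher and 0 lower, against 552 and 277 of all 11199 genes tested.

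The list of proteases that process or cleave SLRPs also held *Pcolce*, which codes for a protease enhancer. Of its 11 fitted genes, 2 rose and 2 fell in 3W-PSC against 2W-PSC, against 5.73% and 4.95% of all genes tested. DESeq2, run on every gene with a count, called 6 genes of the list higher and 3 lower. It called 885 of all 17876 genes lower in this comparison, and its count of all genes higher is not given here. *Mmp13* (collagenase) was at 1.73 ± 0.844 CPM in 2W-PSC and 56.1 ± 41.6 in 3W-PSC (SD, n = 4; log2 fold change 5.0, SE 0.641, edgeR adjusted p = 0.000840). *Mmp3* (stromelysin) was at 5.92 ± 1.92 and 76.7 ± 50.4 CPM (SD, n = 4; log2 fold change 3.70, SE 0.501, edgeR adjusted p = 0.00115). Both were at 4 counts or fewer in every mono-PSC library. *Adamts1*, a metalloprotease gene, fell by 1.82 on the log2 scale (SE 0.317, edgeR adjusted p = 0.00517), and *Pcolce*, the procollagen C-proteinase enhancer gene, fell by 0.99 (SE 0.274, edgeR adjusted p = 0.0413), a call lost without any 1 of the 3W-PSC libraries or without 2W-PSC replicate 4. Against mono-PSC, 4 of 11 rose and 3 fell, against 13.4% and 13% of all genes tested.

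Growth factor and receptor genes whose products SLRPs are known to bind moved in both directions. Of 20 fitted in 3W-PSC against 2W-PSC, 6 rose and 3 fell, against 5.73% and 4.95% of all genes tested, with a median log2 fold change of 0.35. Of these calls, *Cd14*, *Tgfbr3* and *Lrp1* (higher) held in 2 of the 8 fits that left out 1 library, and *Wisp1* (lower) in 1. *Tlr2*, whose product is a receptor for soluble biglycan, was at 2.84 ± 1.0 CPM in 2W-PSC and 23.3 ± 2.78 in 3W-PSC (SD, n = 4; log2 fold change 3.04, SE 0.305, edgeR adjusted p = 0.000181). *P2rx7*, an ATP-gated channel gene, rose by 2.40 (SE 0.450, edgeR adjusted p = 0.00724), and *Cd44*, the hyaluronan receptor gene, by 1.58 (SE 0.326, edgeR adjusted p = 0.0118). *Bmp4* fell by 2.38 on the log2 scale (SE 0.257, edgeR adjusted p = 0.000296), from 89.9 ± 26.2 to 17.3 ± 4.52 CPM (SD, n = 4). In 2W-PSC against mono-PSC, the EGF receptor gene *Egfr* rose by 1.59 (SE 0.324, edgeR adjusted p = 0.0385), a call that held without 2 of the 8 libraries, mono-PSC replicate 1 and 2W-PSC replicate 2, and was lost without each of the others. Against mono-PSC, 9 of 20 rose and 2 fell in 3W-PSC, against 13.4% and 13% of all genes tested.

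2 larger chondroitin sulfate proteoglycan genes had enough counts to be fitted. *Vcan*, the versican gene, was at 13.2 ± 4.06, 30.2 ± 6.21 and 65.6 ± 5.08 CPM in mono-PSC, 2W-PSC and 3W-PSC (SD, n = 4). It rose in 3W-PSC by 1.12 against 2W-PSC (SE 0.187, edgeR adjusted p = 0.00413) and by 2.30 against mono-PSC (SE 0.218, edgeR adjusted p = 5.69e-07). *Acan*, the aggrecan gene of cartilage, had 0 counts in every mono-PSC library and was at 3.52 ± 1.58 CPM in 2W-PSC and 4.33 ± 1.52 in 3W-PSC (SD, n = 4). It was called higher in both, but it passed the filter only through the co-cultures. A change could then only be a rise, so no p-value is given. The 2W-PSC call was lost without 2W-PSC replicate 4. The other 9 genes of this list had too few counts to be fitted. Epithelial marker sums, as given above, were higher in both co-cultures than in mono-PSC, with the co-cultures overlapping. Macrophage marker sums were higher in 3W-PSC than in both other cultures, whereas mono-PSC and 2W-PSC overlapped. Whether these marker sums came from carried-over RNA was not tested. Whether carried-over RNA had a part in the partner genes that rose was not tested either.

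**Figure D4:**
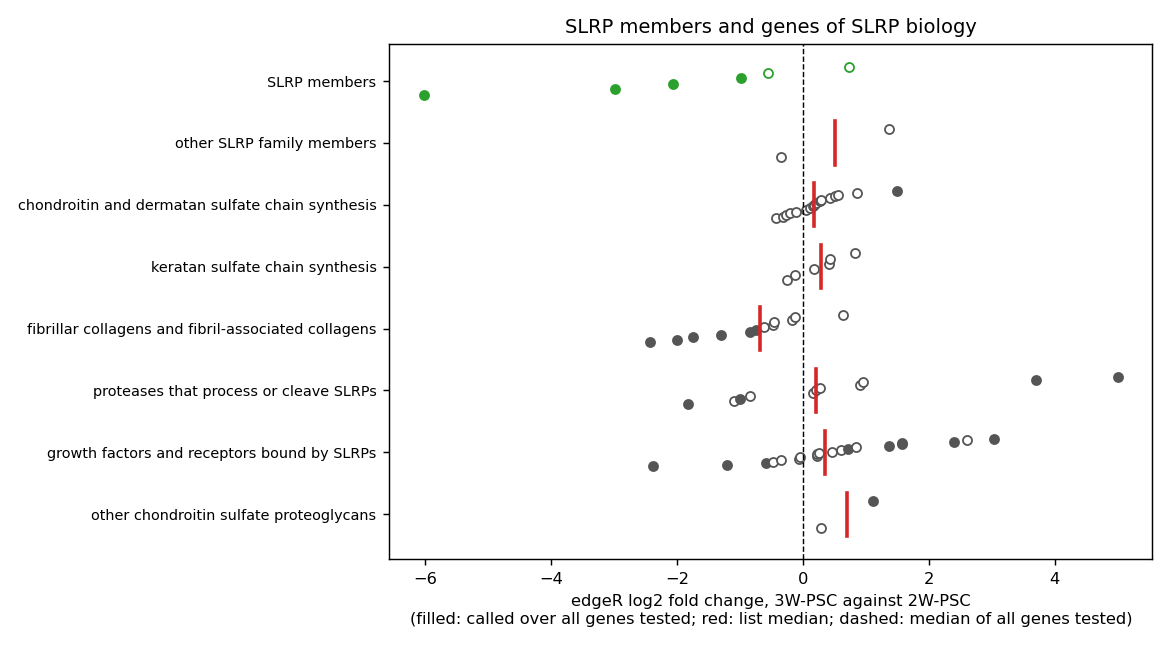
Log2 fold changes of 3W-PSC against 2W-PSC from edgeR for the fitted SLRP genes (green) and for 7 lists of genes of SLRP biology, 1 point per gene, filled where called over all genes tested, with red lines at list medians and a dashed line at the median of all genes tested. The collagen list lies mostly below 0 (median -0.68), while the chain synthesis lists lie near 0 (0.18 and 0.29).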

How the data were processed

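QuantSeq 3′ FWD libraries of polyadenylated RNA were read as single ends. The deposited values are whole-number counts per gene, which the authors made by trimming, alignment to GRCm38 with STAR and counting with featureCounts, and which the authors' methods call normalised although totals differ between libraries. The strand setting of the counting is not given in the sources used here.

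From these counts, cultures were compared in pairs with edgeR 4.0.16 (R 4.3.3) by TMM, filterByExpr and the quasi-likelihood test on 8 libraries without a block, with a prior count of 0.125 and Benjamini-Hochberg adjustment over all genes tested. SE is the log2 fold change divided by the square root of F. The tests were tried on simulated data. The SLRP genes and the lists of partner genes were chosen with earlier results of these data known. Named genes were the 9 SLRP genes, other family members, up to 4 called genes per list and comparison with the largest change (a few further called genes are named without full values), and the 3 nearest profiles of each called SLRP gene. *Adgre1* was not found under that symbol, and its older symbol *Emr1* was used. Positions come from GENCODE M21. Protein sequences were not used here. Alternatives were DESeq2 1.42.0, other filters and scalings, a fit of all 12 libraries, the replicate number as a block and leaving out each library. A fit without *Gm26924* and mitochondrial rRNA genes was added after seeing the data. The replicate numbers carry no stated shared day or batch, and not every same-numbered pair deviated together. A detail of the PCC genotype is not reported here.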

Additional observations from a re-analysis of the deposited data

Results flagged for a closer look

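In 5 of 27 groups of 4 libraries, 1 library of an SLRP gene stood apart from the other 3 by Dixon's ratio, where chance gives about 1 in 20. *Bgn* was at 2435 CPM in 3W-PSC replicate 4, against 1906 to 1984 in the others. *Podn* was at 1.784 CPM in 3W-PSC replicate 3, against 5.06 to 5.58. *Lum* was at 0.160 CPM in 2W-PSC replicate 4, from 1 count, against 0.702 to 0.795. *Lum* was at 0.3992 CPM in 3W-PSC replicate 1 and *Fmod* at 0.2599 CPM in 3W-PSC replicate 4, from 3 and 2 counts, where the others had 0; with 3 values at 0 the ratio is 1 by construction, so the chance rate does not apply to these 2 groups.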

How the results depend on the processing

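Calls of *Aspn*, *Prelp* and *Ogn* in 3W-PSC held under every alternative that fitted them. *Bgn* against mono-PSC was called in 3W-PSC under 15 of 16 alternatives and in 2W-PSC under 3 of 16 (no filter, 12 libraries in 1 fit, DESeq2). The cause of the changes below was not tested. With at least 10 counts in every library, which removes *Aspn* and *Fmod*, 2 SLRP genes were called lower in 3W-PSC against mono-PSC; in 2W-PSC against mono-PSC, 1 partner and 45 of all genes were called higher. With no filter, that comparison gave 149 higher and 28 lower. With 12 libraries in 1 fit it gave 220 and 42, and in 3W-PSC against mono-PSC 0 SLRP genes higher and 985 genes lower. With DESeq2, 5 partner, 230 higher and 47 lower genes were called in 2W-PSC against mono-PSC, and 885 lower in 3W-PSC against 2W-PSC.

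Same-numbered libraries correlated in their deviations at -0.0476 to 0.155 in 3W-PSC against 2W-PSC, 0.0990 to 0.338 in 2W-PSC against mono-PSC and 0.00263 to 0.107 in 3W-PSC against mono-PSC, over 0.1 in 1, 3 and 1 of 4 pairs, and 2, 4 and 2 of 8 libraries correlated best with their own number. Pairing was therefore not taken as shown in any comparison. With the replicate block, 297 genes instead of 570, and 7 partner genes instead of 11 (without *Col1a1*, *Col14a1*, *Pcolce* and *Wisp1*), were lower in 3W-PSC against 2W-PSC, 7 partner genes instead of 10 (without *Cd14*, *Lrp1* and *Tgfbr3*) were higher, and no call of an SLRP gene changed; *Chadl* in 2W-PSC against mono-PSC turned to 0.02882.

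*Podn* in 2W-PSC against mono-PSC turned to -0.01214 with no filter, -0.0003432 with 12 libraries in 1 fit and -0.01672 with DESeq2. Leaving out 1 library at a time, it ranged from -0.5701 to 0.349. *Dcn* in 3W-PSC against mono-PSC ranged from -0.2121 to 0.09191, *Chadl* in 2W-PSC against mono-PSC from -0.5406 to 0.007158, *Podnl1* from -0.2675 to 0.354 there and from -0.5708 to 0.04551 in 3W-PSC against 2W-PSC. In 3W-PSC against 2W-PSC, SLRP genes called lower ranged from 3 to 5, partner genes called lower from 7 to 16, and all genes from 330 to 1098 higher and 167 to 1009 lower, the highest without 2W-PSC replicate 2 and the lowest without 3W-PSC replicate 2. In 2W-PSC against mono-PSC, SLRP genes called higher ranged from 1 to 2, partner genes from 1 to 4 higher and 0 to 1 lower, and all genes from 55 to 183 higher and 6 to 50 lower, the highest without 2W-PSC replicate 2.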
